A study of Danio rerio with 6 samples.

Results

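Macrophages and neutrophils are the phagocytes of the zebrafish larva, and 9 genes that mark them were followed across 6 libraries of whole animals: the transcription factor gene spi1b, the receptor genes csf1ra and marco, the actin regulators coro1a and lcp1, and the effector genes mpeg1.1, mpx, lyz and ncf1. They were taken by their symbol in a count table of 14612 genes. Of the 9, 7 were found under that symbol and mpeg1.1 under its older symbol mpeg1, whose row has no gene number, which gave 8 genes. marco, a scavenger receptor gene of macrophages, is not analysed here. All 8 passed the filter on low counts, and none was at 0 in any library.

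The series measured RNA from pools of 33 to 35 whole embryos (Danio rerio) at 7 days post fertilization. Of the 6 pools, 3 were held in plain embryo medium (control) and 3 in embryo medium with dissolved nucleotides at 10 µM (exposed), numbered 1 to 3 in each arm. The labels name no strain, genotype or particular nucleotide. The headings of the exposed libraries in the table, and the table's name, speak of carbon monoxide instead, a mismatch that could not be resolved, and the agent is given as the labels have it. The library names in the same headings hold the letters EM for control and NT for exposed libraries. No label ties a pool to a clutch. The numbers that end the library names are the same in both arms for pools 2 and 3, but not for pool 1. At most, a p-value here reflects how far the pools of an arm spread. In fits that take the numbers as pairs it reflects at most how far the differences within pairs spread. Either spread may be technical. The fits also estimate the spread of a gene partly from other genes. The p-values, SEs and intervals thus lean on a spread shared across genes, and more so with so few pools. The totals ran from 18690465 to 31556366 counts per library.

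In zebrafish, myeloid cells arise from blood progenitors under the control of the ETS-family factor Pu.1, which spi1b encodes. Macrophages patrol tissues and engulf microbes and debris, and depend on signalling through the CSF1 receptor. Neutrophils carry granules with peroxidase and lysozyme and make superoxide with an NADPH oxidase assembled from membrane and cytosolic subunits. Both are a small part of a whole larva. In RNA from whole animals, more cells of a type and more RNA per cell cannot be told apart.

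The 8 genes did not move together. spi1b, coro1a and mpeg1.1 were higher in the exposed library of every same-numbered pair, by 1.32- to 1.43-fold in the fitted means. These folds are after TMM scaling and were smaller with library totals. csf1ra and lyz were lower in every pair, and lcp1, mpx and ncf1 differed in direction between pairs. Of all tested genes 25.7% were higher and 27.4% lower in every pair. In the edgeR quasi-likelihood test without the pair, 0 of the 8 passed an adjusted p of 0.05, against 0.937% of all 13336 tested genes called higher and 0.0525% called lower. At an unadjusted p under 0.05, 3 of the 8 were higher and 0 lower, beside 8.3% and 6.19% of all genes, and DESeq2 called 2 higher, coro1a and mpeg1.1, and 0 lower, beside 3.05% and 0.736% of its genes.

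Same-numbered libraries of the arms deviated together across genes, so that the number was taken to pair the pools and entered as a block in a further fit. With this replicate block 3 of the 8 rose (spi1b, coro1a and mpeg1.1) and 1 fell (lyz), where 10.7% of all tested genes were called higher and 8.38% lower. DESeq2 with the block called the same 3 higher, beside 8.55% of its genes, and 0 lower, beside 4.93%. The unadjusted p of the blocked edgeR fit was under 0.05 for the same 4 genes, 3 higher and 1 lower, beside 17.1% and 16.2% of all genes. The median log2 fold change of the 8 genes was -0.03 without the block and -0.04 with it, against -0.01 for all tested genes in both fits.

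**Figure D1:**
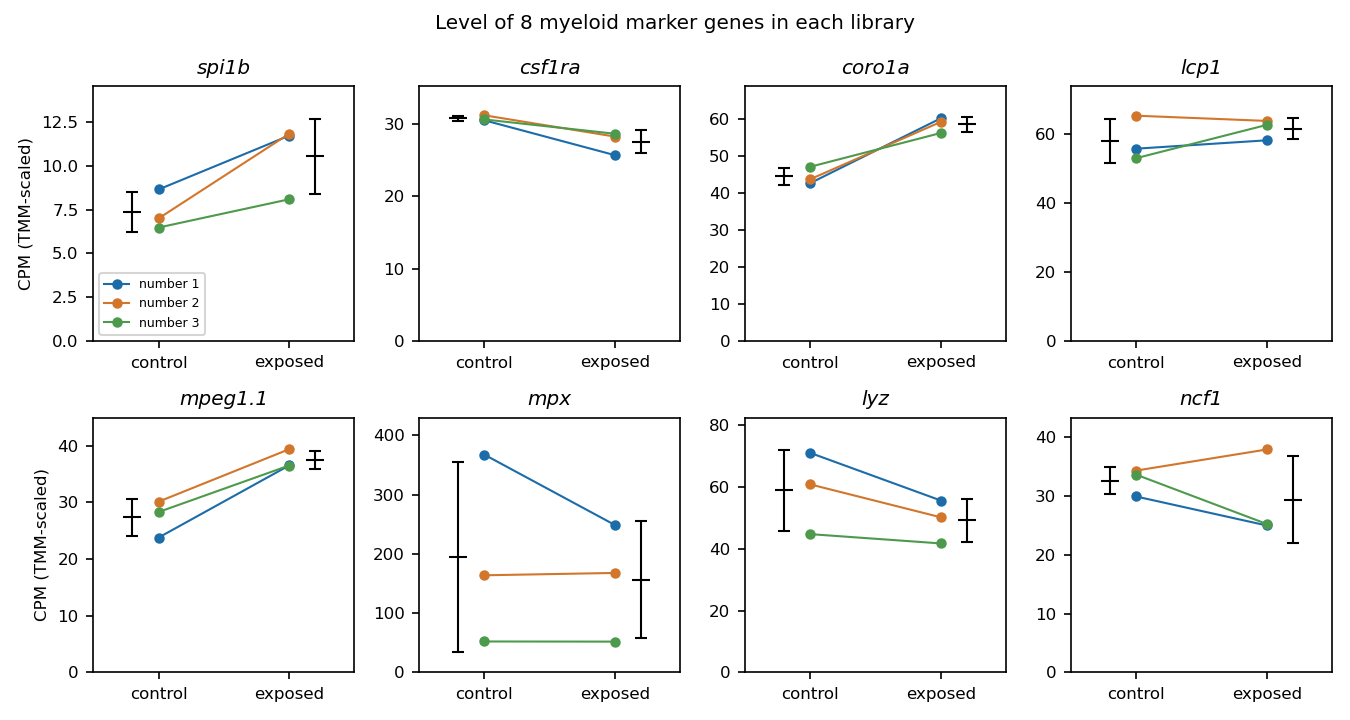
Level of 8 myeloid marker genes as CPM (TMM-scaled, vertical axis from 0) in the 3 control and 3 exposed libraries. Points are libraries, lines join libraries of the same number, and black bars give the mean and SD of each arm (n = 3); mpx differs between libraries of an arm by up to 7.04-fold in control and 4.79-fold in exposed libraries, while coro1a and mpeg1.1 lie higher in every exposed library.

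spi1b, the myeloid master regulator, was at 8.65, 7.00 and 6.48 CPM (counts scaled to a common library total) in control libraries 1 to 3 and at 11.7, 11.8 and 8.09 CPM in exposed libraries 1 to 3. The lowest exposed library, number 3, lay below the highest control library, number 1, so the arms overlapped, although each exposed library lay above the control of its own number. The mean went from 7.37 ± 1.14 to 10.5 ± 2.13 CPM (SD, n = 3 each). Its log2 fold change was 0.51 ± 0.195 (SE; edgeR adjusted p = 0.282) without the block and 0.50 ± 0.128 with it (adjusted p = 0.0188). The blocked call was lost without pair 2 (0.38, adjusted p = 0.128). DESeq2 gave an adjusted p of 0.224 without the block and 0.0496, just under the threshold, with it. The authors' deposited table gives a log2 fold change of 0.36 with an adjusted p of 0.211. With 135 to 336 counts per library it was the least covered of the 8 genes.

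spi1a, the second Pu.1-type gene of the fish and not among the 8, was at 8.10, 11.04 and 9.27 CPM in control and 11.8, 14.1 and 13.1 CPM in exposed libraries. All exposed libraries lay above all control libraries. Its log2 fold change was 0.46 ± 0.152 (edgeR adjusted p = 0.223), and 0.47 ± 0.109 with the block (adjusted p = 0.0128). That call was lost without pair 3 (0.45, adjusted p = 0.0554). How reads matching both copies were counted is not given in the sources used here.

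csf1ra encodes a receptor for macrophage colony-stimulating factor, and in zebrafish it also serves the yellow pigment cells, the xanthophores. It was at 30.5, 31.2 and 30.6 CPM in control and 25.7, 28.3 and 28.6 CPM in exposed libraries. The control libraries were nearly level, and all exposed libraries lay below them, as was so for 9.89% of all tested genes. The log2 fold change was -0.16 ± 0.0902 (95% interval -0.37 to 0.05; edgeR adjusted p = 0.467), and with the block it was -0.16 ± 0.0765 (interval -0.33 to 0.00465, adjusted p = 0.161).

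Since csf1ra also marks xanthophores, their markers were read beside it. Of 10 other tested xanthophore genes 0 passed in edgeR without the block (1 at an unadjusted p under 0.05, 1 called higher in DESeq2). With the block, beside 10.7% of all tested genes, 2 of the 10 rose, pts and gch2. Both act in pteridine and pterin cofactor synthesis. pts went from 2.34, 3.26 and 3.63 CPM to 6.07, 8.65 and 7.01 CPM, with no overlap (log2 fold change 1.23 ± 0.222, edgeR adjusted p = 0.0531, 0.000467 with the block). gch2, named after its values were seen, had a log2 fold change of 0.38 with the block (adjusted p = 0.0394), a call lost without pair 2 or 3 (0.0506 and 0.280) and in DESeq2 with the block (0.141). The summed level of these xanthophore genes was 207 to 248 CPM in control and 214 to 251 CPM in exposed libraries, and their part in the csf1ra values was not tested.

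coro1a encodes coronin 1A, an actin-binding protein of leukocytes. It was at 42.7, 43.8 and 47.2 CPM in control and 60.3, 59.3 and 56.3 CPM in exposed libraries. Every exposed library lay above every control library, as was so for 11.5% of all tested genes, and the spread within each arm was small. The mean went from 44.6 ± 2.31 to 58.6 ± 2.07 CPM (SD, n = 3 each), a log2 fold change of 0.40 ± 0.0859 (95% interval 0.20 to 0.59; edgeR adjusted p = 0.0899). With the block the change was 0.40 ± 0.0702 (adjusted p = 0.00295). It also passed with any pair left out, in fits of 2 pairs that carry little weight. DESeq2 gave an adjusted p of 0.0122 without the block, and the authors' deposited table gives a log2 fold change of 0.36 with an adjusted p of 0.0115.

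lcp1 encodes L-plastin, an actin-bundling protein of leukocytes. It was at 55.8, 65.3 and 53.0 CPM in control and 58.2, 63.8 and 62.7 CPM in exposed libraries. The arms overlapped, and pair 2 was lower while pairs 1 and 3 were higher. The log2 fold change was 0.09 ± 0.105 (95% interval -0.16 to 0.33; edgeR adjusted p = 0.77). With library totals in place of TMM scaling it turned to -0.04, as the median of all genes moved from -0.01 to -0.14.

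A ratio of counts within a library does not depend on the scaling. That of coro1a to lcp1 was 0.766, 0.67 and 0.89 in control and 1.04, 0.929 and 0.899 in exposed libraries. The arms did not overlap, but exposed library 3 and control library 3 were close. As coro1a had already been seen to be higher and lcp1 nearly level, this ratio restates those values and is a description only.

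mpeg1.1 encodes perforin-2, a pore-forming protein that serves as a standard marker of zebrafish macrophages. It was at 23.8, 30.1 and 28.3 CPM in control and 36.5, 39.4 and 36.5 CPM in exposed libraries, from 558, 581 and 677 against 1046, 978 and 1051 counts. The exposed libraries lay above all control libraries and close to each other. The mean went from 27.4 ± 3.26 to 37.5 ± 1.65 CPM (SD, n = 3 each), a log2 fold change of 0.45 ± 0.111 (95% interval 0.20 to 0.71; edgeR adjusted p = 0.122). With the block it was 0.46 ± 0.0793 (adjusted p = 0.00264), and it passed with any pair left out, again in fits of 2 pairs. The authors' deposited table gives 0.39 with an adjusted p of 0.0304.

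Its relative mpeg1.2, listed as zgc:110354, was at 96.7, 154 and 92.7 CPM in control and 134, 141 and 103 CPM in exposed libraries. The arms overlapped (log2 fold change 0.14 ± 0.211, edgeR adjusted p = 0.825, and 0.25 with the block). Within libraries, the ratio of mpeg1.1 to csf1ra counts was 0.779, 0.965 and 0.924 in control and 1.42, 1.39 and 1.27 in exposed libraries. These 2 macrophage genes thus stood in a higher ratio in every exposed library, a description of a pair chosen after the values were seen.

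mpx encodes the myeloperoxidase of neutrophil granules. It was at 368, 164 and 52.2 CPM in control and 249, 168 and 52.0 CPM in exposed libraries, from 8625, 3163 and 1250 against 7128, 4172 and 1497 counts. Number 1 was the highest and number 3 the lowest in both arms, and pairs 2 and 3 were almost level. The highest library exceeded the lowest 7.04-fold in control and 4.79-fold in exposed libraries, where the median gene with at least 5 CPM had ratios of 1.21 and 1.22. Of 11359 such genes 15, mpx included, had a ratio of at least 4.79 in both arms.

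**Figure D2:**
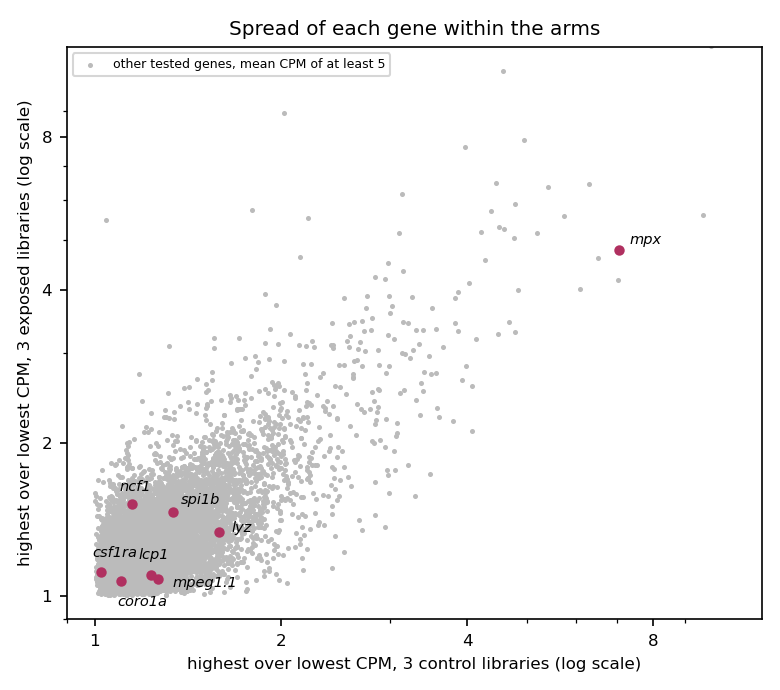
Ratio of the highest to the lowest CPM among the 3 control libraries (horizontal) and the 3 exposed libraries (vertical), both on log scales, for 11359 tested genes with a mean of at least 5 CPM; 10 genes with a ratio over 12 lie outside the axes. Red points are the 8 marker genes: mpx lies at 7.04 and 4.79, and the other 7 lie at or under 1.59 in both arms.

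The spread between numbers set the precision of the mpx comparison. Without the block its log2 fold change was -0.32 ± 0.706 (95% interval -1.95 to 1.31; edgeR adjusted p = 0.881), and it turned to 0.53 without control library 1 and 0.10 without exposed library 3. With the block it was -0.19 ± 0.102 (interval -0.41 to 0.04, adjusted p = 0.226). The differences within the 3 pairs had an SD of 0.334 in log2 CPM, and the blocked SE leans on the spread of other genes too. Within pairs the log2 ratio of exposed to control was -0.56 in pair 1, 0.03 in pair 2 and -0.01 in pair 3, so that the blocked change turned to 0.02 without pair 1. Over the fits with a pair left out it ran from -0.30 to 0.02, with edgeR adjusted p from 0.0431 to 0.896. mpx held 58.3% of the counts of the 8 genes in control library 1 and 16.7% in exposed library 3, so a sum over the genes mainly follows mpx. Without mpx the summed level was 244 to 273 CPM in control and 259 to 291 CPM in exposed libraries.

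lyz, which encodes a lysozyme made by neutrophils and some macrophages, was likewise highest in number 1 and lowest in number 3 of both arms, with a far smaller range. It was at 71.0, 60.8 and 44.7 CPM in control and 55.6, 50.2 and 41.7 CPM in exposed libraries. The arms overlapped, yet each exposed library lay below the control of its number. The log2 fold change was -0.26 ± 0.179 (edgeR adjusted p = 0.559) without the block and -0.25 ± 0.0698 with it (adjusted p = 0.0299). That call was lost without pair 1 (-0.18, adjusted p = 0.205) or pair 2 (-0.23, adjusted p = 0.0916), and in DESeq2 with the block (adjusted p = 0.0989). The ratio of mpx to lyz counts was 5.17, 2.69 and 1.17 in control and 4.47, 3.35 and 1.25 in exposed libraries, so the numbers differed in this ratio far more than the arms.

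ncf1 encodes a cytosolic subunit of the phagocyte NADPH oxidase. It was at 30.0, 34.4 and 33.7 CPM in control and 25.02, 38.0 and 25.3 CPM in exposed libraries. Exposed library 2 was the highest of all 6 and exposed libraries 1 and 3 the lowest. The log2 fold change was -0.15 ± 0.171 (95% interval -0.55 to 0.24; edgeR adjusted p = 0.744), and with the block -0.18 ± 0.1 (adjusted p = 0.244). Without pair 2 the blocked change was -0.34 with an adjusted p of 0.0254.

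**Figure D3:**
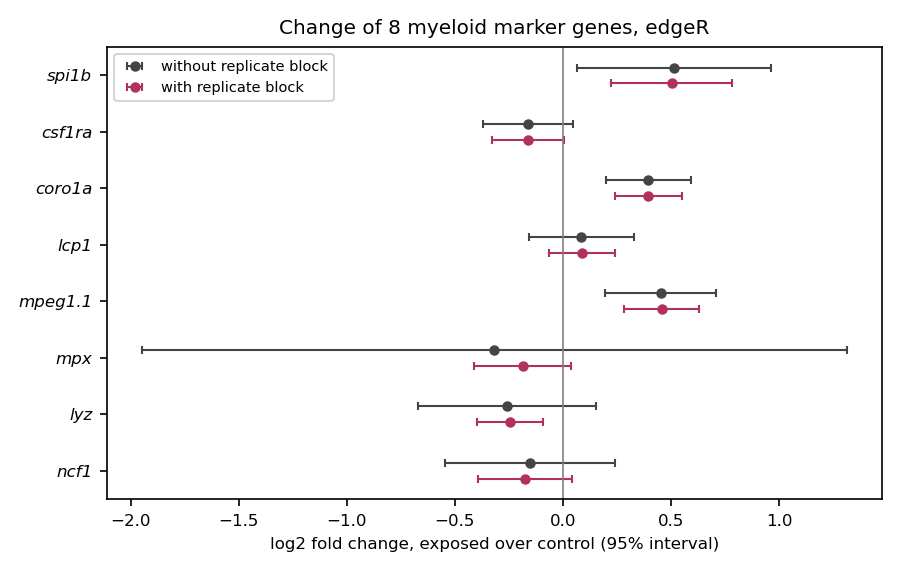
Log2 fold change of exposed over control libraries with its 95% interval for the 8 marker genes, from edgeR without (grey) and with (red) the replicate block. The intervals of spi1b, coro1a and mpeg1.1 lie above 0 in both fits, that of lyz lies below 0 only with the block (-0.40 to -0.09), and that of mpx shrinks from -1.95 to 1.31 without the block to -0.41 to 0.04 with it. The intervals are not adjusted for the number of genes tested. Without the block the edgeR adjusted p of spi1b, coro1a and mpeg1.1 was 0.282, 0.0899 and 0.122.

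The other genes of these cells were read from lists of leukocyte, macrophage, neutrophil and related genes, which share some members with the 8 genes and with each other. Counts by unadjusted p are at the same 0.05. Without the block 8.3% of all tested genes were higher and 6.19% lower by that measure. With the block 10.7% were called higher and 8.38% lower by adjusted p. DESeq2 without the block called 3.05% of its genes higher and 0.736% lower. Of 14 pan-leukocyte genes other than the 8, 0 passed without the block in edgeR (1 higher and 1 lower by unadjusted p, 1 called higher in DESeq2) and 4 rose and 0 fell with it. Their median log2 fold change was 0.14, against -0.01 for all tested genes. The 4 were rac2, a small GTPase of leukocytes, arpc1b, a subunit of the Arp2/3 actin nucleator, and hcls1 and arhgdig, named after their values were seen. With any single pair left out, the blocked fit called 2 of them, rac2 and arhgdig; arpc1b and hcls1 were lost without pair 2 (adjusted p = 0.0879 and 0.0525). rac2 was at 33.7, 33.7 and 39.6 CPM in control and 51.9, 47.1 and 55.6 CPM in exposed libraries. It had no overlap, with a log2 fold change of 0.53 ± 0.108 (edgeR adjusted p = 0.0745, 4.00e-04 with the block and 0.00421 in DESeq2). tyrobp, an adaptor of activating receptors, had a change of -0.59 (adjusted p = 0.313, 0.0794 with the block).

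Of 22 macrophage and microglia genes other than the 8, 0 passed without the block (1 higher and 1 lower by unadjusted p in edgeR, 0 in DESeq2). Their median was 0.19. With the block 4 rose and 0 fell, beside 10.7% and 8.38% of all tested genes. The 4, named after their values were seen, were the progranulin genes grn1 and grn2 and the cathepsin genes ctsba and ctss2.2, with blocked changes of 0.30, 0.22, 0.26 and 0.28. None (0 of 4) was called with every single pair left out in turn, and DESeq2 with the block called 2, grn1 and ctsba. mfap4, a further macrophage marker, had a change of 0.36 (edgeR adjusted p = 0.305, 0.0699 with the block) and timd4, a receptor for apoptotic cells, one of -0.41 (0.249, and 0.0538 with the block). lgals9l1 was at 0 in all libraries.

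Of 11 neutrophil and granulocyte genes other than the 8, 0 passed without the block (2 higher and 0 lower by unadjusted p in edgeR, 0 in DESeq2). Their median was 0.23. With the block 3 rose and 0 fell, beside 10.7% and 8.38% of all tested genes. The 3 were mmp9, nccrp1 and srgn, the last encoding the granule proteoglycan serglycin. srgn was at 36.9, 43.0 and 37.0 CPM in control and 48.2, 50.0 and 44.2 CPM in exposed libraries (log2 fold change 0.29 ± 0.101, edgeR adjusted p = 0.252, 0.0148 with the block). Each of the 3 blocked calls was lost with some pair left out, srgn without pair 1 (adjusted p = 0.069), nccrp1 without pair 1 or 3 (0.218 and 0.0885) and mmp9 without pair 3 (0.0654), and DESeq2 with the block called srgn but not the other two. npsn had at most 7 counts in a library and was not tested. cpa5, a carboxypeptidase gene singled out after its values were seen, held 70.6% to 76.0% of the counts of this list in each library. The summed level, 2490 to 3247 CPM in control and 2530 to 3186 CPM in exposed libraries, thus mainly follows that gene. Which cells of the whole animal the cpa5 RNA came from was not tested, so this sum is no measure of neutrophils.

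In this list the matrix metalloproteinase genes had their highest level in exposed library 2. mmp13a was at 8.27, 7.93 and 8.27 CPM in control and 8.90, 48.9 and 9.51 CPM in exposed libraries. mmp9 was at 43.9, 94.2 and 53.1 CPM in control and 46.4, 216 and 106 CPM in exposed libraries. For mmp13a the other exposed libraries lay near the controls, whereas for mmp9 exposed library 3 also lay above every control library. Without exposed library 2 the log2 fold change went from 1.45 to 0.17 for mmp13a (edgeR adjusted p = 0.341 and 0.659) and from 0.94 to 0.26 for mmp9 (0.455 and 0.823). The cytokine gene il1b, named after its values were seen, was at 7.33, 14.8 and 11.4 CPM in control and 7.33, 65.1 and 9.41 CPM in exposed libraries, and its change went from 1.28 to -0.41 without exposed library 2 (0.505 and 0.578). mmp9 rose with the block (0.78 ± 0.154, adjusted p = 0.00531). Without pair 2 its blocked change was 0.55 and was called, but a fit of 2 pairs cannot show that the rise held without that pair. The call was lost without pair 3 (0.67, adjusted p = 0.0654) and in DESeq2 with the block (0.12).

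**Figure D4:**
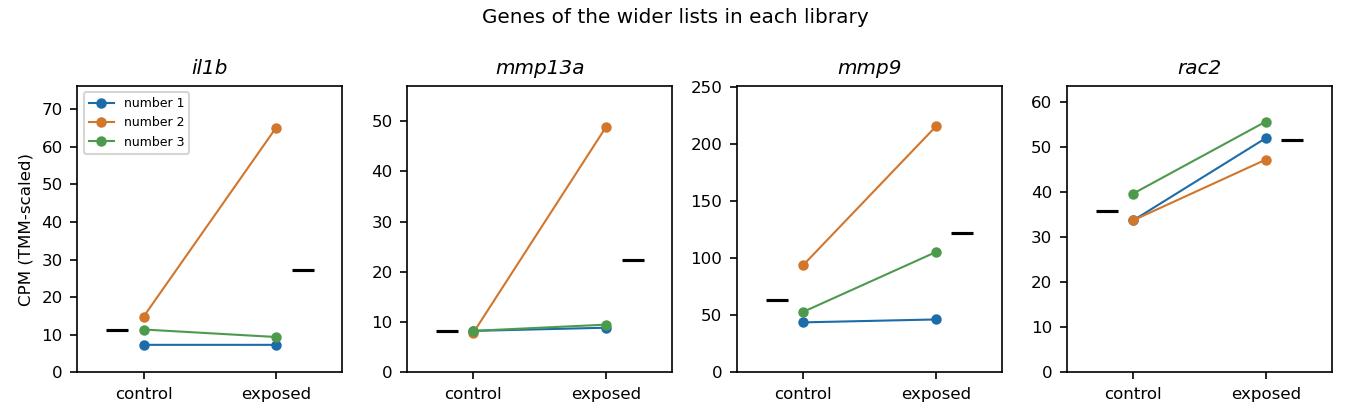
CPM (TMM-scaled, vertical axis from 0) of il1b, mmp13a, mmp9 and rac2 in each library, with lines joining libraries of the same number and a black tick at the mean of each arm (n = 3). Exposed library 2 stands at 65.1, 48.9 and 216 CPM for the first 3 genes, whereas rac2 lies higher in all exposed libraries.

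Of 25 tested inflammatory mediators 0 passed without the block (1 higher and 3 lower by unadjusted p in edgeR, 1 lower in DESeq2), with a median of -0.01. With the block 3 rose and 3 fell, beside 10.7% and 8.38% of all tested genes. Those lower included nfkbiab and nfkbiaa, which encode inhibitors of NF-kappa-B. nfkbiab was at 289, 271 and 313 CPM in control and 129, 195 and 224 CPM in exposed libraries, with no overlap. Its log2 fold change was -0.67 ± 0.191 (edgeR adjusted p = 0.179, 0.00172 with the block and 0.0244 in DESeq2). nfkbiaa had a change of -0.44 (0.328, and 0.0185 with the block). It was -0.23 without exposed library 1, and the blocked call was lost without pair 1 (-0.22, adjusted p = 0.0689) and in DESeq2 with the block (0.222). il1rapl1a, of the interleukin 1 receptor family, had one of -0.27 (0.29, and 0.0205 with the block), a call lost without pair 1 or 3 (0.154 and 0.0672). Whether il1rapl1a acts in inflammation here was not tested. acod1, which makes itaconate in activated macrophages, had one of 0.56 (0.318, and 0.0307 with the block). It was 0.33 without exposed library 3, and the blocked call was lost without pair 3 (0.25, adjusted p = 0.22). The others that rose with the block, named after their values were seen, were the chemokine gene cxcl18b and the hepcidin gene hamp, by 0.48 and 0.24. Of the 6 blocked calls 1, nfkbiab, was made with any single pair left out.

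Of 18 tested transcription factor genes of blood other than spi1b, 0 passed without the block (4 higher and 1 lower by unadjusted p in edgeR, 2 called higher in DESeq2), with a median of -0.04. Beside 10.7% of all tested genes, 3 of the 18 rose with the block. They were mafba, cebp1 and spi1a, of which mafba and cebp1 were called with any single pair left out. DESeq2 with the block called mafba and spi1a, and gave no adjusted p for cebp1. mafba, a macrophage factor also used in hindbrain and other tissues, was at 51.7, 46.0 and 40.9 CPM in control and 65.5, 65.0 and 66.3 CPM in exposed libraries. The arms did not overlap (log2 fold change 0.50 ± 0.104, edgeR adjusted p = 0.0764, 0.00103 with the block). cebp1, a C/EBP gene of zebrafish myeloid cells, had few reads, with 34, 6 and 26 counts for controls 1 to 3 against 86, 58 and 77 after exposure, and a change of 1.46 ± 0.43 (0.186, and 0.00621 with the block). irf8, needed for macrophage fate and named after its values were seen, had a change of -0.29 (0.478, and 0.128 with the block). etv6 was at 0 in all libraries.

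Of 10 genes of the NADPH oxidases and their partners other than ncf1, 0 passed without the block (1 higher by unadjusted p in edgeR, 1 called higher in DESeq2), with a list median of 0.17. With the block, beside 10.7% of all tested genes, 2 of the 10 rose, rac2 and rac1a. The call of rac1a was lost without pair 3 (adjusted p = 0.0703) and in DESeq2 with the block (0.0557), and its change went from 0.26 to 0.12 without exposed library 3. The voltage-gated proton channel gene hvcn1 and the membrane subunit gene cyba had changes of 0.18 and 0.15 (edgeR adjusted p = 0.417 and 0.638). Of 8 tested growth factor and receptor genes of these cells 0 passed without the block (0 higher and 1 lower by unadjusted p in edgeR, 0 in DESeq2). With the block, beside 8.38% of all tested genes, 1 of the 8 fell. It was the kit ligand gene kitlgb (-0.87, adjusted p = 0.0258), a call lost without pair 1 or 3 (0.0993 and 0.0818). il34, a ligand of the CSF1 receptor, had at most 15 counts in a library and was not tested, and csf1a and csf1b, which encode ligands of that receptor and were named after their values were seen, had changes of 0.000547 and -0.09 (adjusted p = 0.999 and 0.868).

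**Figure D5:**
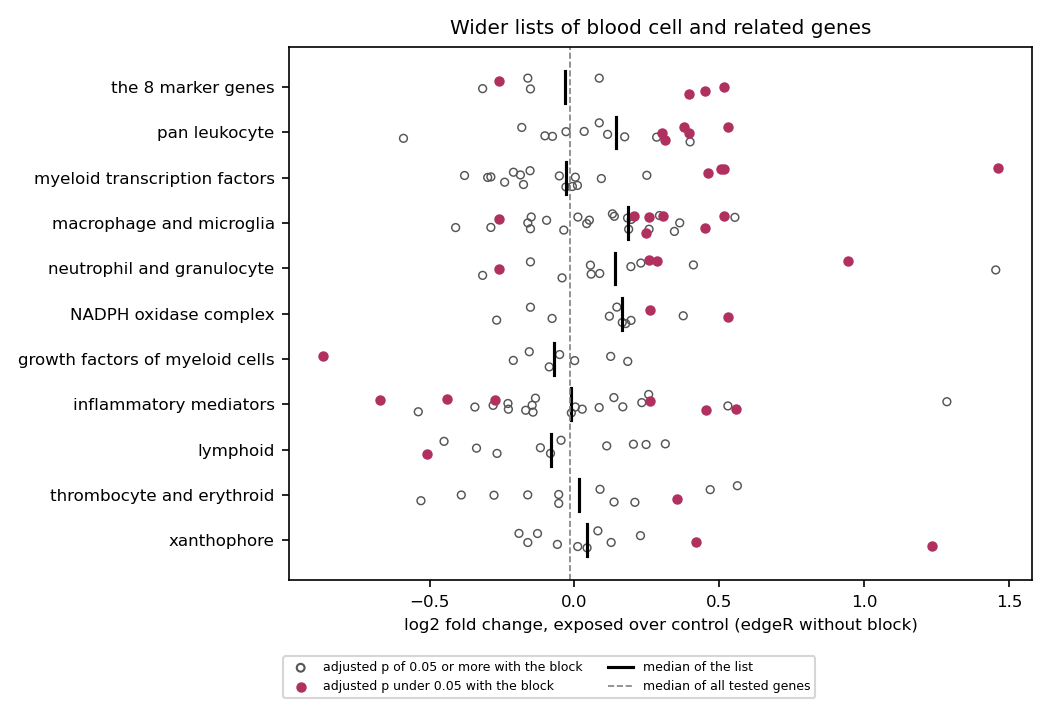
Log2 fold change of exposed over control libraries (horizontal, edgeR without the block) of each tested gene, by list; filled red points pass the threshold of 0.05 in the blocked fit. Black bars are list medians, which lie at 0.14, 0.18 and 0.14 for the pan-leukocyte, macrophage and neutrophil lists with the 8 genes included, and the dashed line is the median of all tested genes at -0.01.

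Relatives of the 8 genes, some of them genes of blood cells too, were read as a further list. Of 16 tested, 0 passed without the block (1 higher by unadjusted p in edgeR, 0 in DESeq2), and 2 rose with it, beside 10.7% of all tested genes. They were spi1a and the plastin gene pls3, the latter at 0.21 and named after its value was seen, and each call was lost with some pair left out. coro1b, the coronin nearest in name to coro1a, was at 104, 115 and 103 CPM in control and 107, 109 and 112 CPM in exposed libraries (log2 fold change 0.03 ± 0.0862, edgeR adjusted p = 0.925). coro6 and coro2a had changes of 0.27 and 0.16 (0.467 and 0.537).

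Other cells of the whole animal were read alongside. Of 11 tested lymphoid genes 0 passed without the block (0 higher and 1 lower by unadjusted p in edgeR, 1 lower in DESeq2). Beside 8.38% of all tested genes, 1 of the 11 fell with the block. This was rag1, the recombinase gene of developing lymphocytes, at 24.9, 21.1 and 22.2 CPM in control and 16.4, 14.05 and 17.4 CPM in exposed libraries (log2 fold change -0.51 ± 0.124, edgeR adjusted p = 0.12, 0.00328 with the block). The summed lymphoid level was 329 to 389 CPM in control and 336 to 344 CPM in exposed libraries, and cd8a had at most 4 counts. Of 12 thrombocyte and erythroid genes 0 passed (0 at an unadjusted p under 0.05 in edgeR, 0 in DESeq2). With the block, beside 10.7% of all tested genes, 1 of the 12 rose. It was the embryonic globin gene hbae1.1, named after its value was seen (0.31, adjusted p = 0.0484). That call was lost without pair 3 (0.15, adjusted p = 0.365) and in DESeq2 with the block (0.109). Of 21 skeletal muscle genes 4 rose without the block and 16 with it, beside 0.937% and 10.7% of all tested genes. The summed level of the muscle genes was 38364 to 46746 CPM in control and 52895 to 87568 CPM in exposed libraries, the highest in exposed library 3. Exposed libraries 1 and 2, at 52895 and 52930 CPM, also lay above every control library in this level. Without exposed library 3 the changes of spi1b, coro1a and mpeg1.1 were 0.68, 0.43 and 0.47. Leaving that library out does not remove the difference in muscle level. The part of these other cells in the values of spi1b, coro1a and mpeg1.1 was not tested.

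Across the 6 libraries, the mean profile of the 8 genes was highest in exposed library 2 and lowest in control library 3. This mean is not scaled by gene, so mpx weighs most in it. The SD of log2 CPM of mpx was 1.41 in control and 1.17 in exposed libraries, against at most 0.342 for the others. Likeness to the profile is thus largely likeness to mpx. The genes most like it among 11351 other genes with a mean of at least 5 CPM, placeholder symbols not being named, were prdm8b, tmem180, rnf103, itsn2a and pkmyt1, with Pearson r of 0.991, 0.99, 0.989, 0.989 and 0.987 over 6 libraries. A value over 0.9 was reached by 1.65% of these genes, and the libraries share their pair number, so this likeness is a description of 6 points.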

How the data were processed

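RNA of 6 pools was sequenced, and the authors deposited raw counts of reads for each gene in each library. The submitters' processing notes list TopHat2, HTSeq and DESeq2 and the build GRCz10, without versions. Not given in the sources used here are annotation, strandedness and the handling of multiply matching reads. Per the file headers, the deposited comparison holds a mean normalised signal, a log2 fold change with its error, the Wald score, and raw and adjusted p-values. Its adjusted p was 0.612 to 0.933 for csf1ra, lcp1, mpx, lyz and ncf1. For mpx it gives a log2 fold change of -0.04 with an error of 0.112, against -0.32 ± 0.706 in edgeR without the block. DESeq2 as run here, without the block, also gave -0.32 for mpx, while its adjusted p was close to the deposited one (0.939 and 0.933). For coro1a these were 0.0122 and 0.0115, and for mpeg1.1 0.0323 and 0.0304. The deposited sizes need thus not be comparable with those of edgeR or DESeq2 given here, even where the adjusted p is close. Of 14681 rows, 69 duplicates (equal symbol and counts) were left out.

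Libraries were assigned by name to the labels. Low counts were removed by filterByExpr (count setting 10, total setting 15; 13336 genes kept), scaled by TMM and tested 2-sided with edgeR 4.0.16 in R 4.3.3 (quasi-likelihood, Benjamini-Hochberg over all tested genes, threshold 0.05). An SE is the log2 fold change divided by the square root of F. CPM are counts scaled to a common total after TMM; log2 CPM used a prior count of 2. DESeq2 1.42.0, other scalings and filters, single libraries or pairs left out and the replicate number as a block were alternatives. The edgeR steps with and without the block were tried on simulated data. Every gene had the same spread settings there, and no fit with a pair left out was tried. That trial is thus no test of the calls given here. Deviations from arm means correlated at 0.546, 0.625 and 0.617 between same-numbered libraries; since all exceeded 0.1, the limit set for this check, the number was used as a pairing, which rests on the counts and not on the labels.

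The genes and the lists were chosen with earlier results of these data known. Of 251 list entries in 12 lists, 199 were matched by symbol, NCBI gene number or older symbol (RefSeq, GRCz12tu). Named list genes are the up to 4 of each list with the smallest p and tested relatives of the 8 genes, others being said to be named after their values were seen. With 3 pools per arm the numbers of calls limit what can be shown.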

Additional observations from a re-analysis of the deposited data

How the results depend on the processing

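Over 17 alternatives, spi1b, csf1ra, coro1a, mpeg1.1, lyz and ncf1 kept the sign of their change in all 17, and lcp1 and mpx in 16 and 14. The adjusted p was under 0.05 in 4, 0, 6, 6, 2 and 1 of the 17 for the first 6, and in 0 and 1 for lcp1 and mpx. lcp1 turned to -0.0395 with library totals. With that scaling the changes of spi1b, coro1a and mpeg1.1 were 0.40, 0.27 and 0.33, and that of csf1ra was -0.29. The median of all genes was then -0.14. The TMM factors were 1.03 to 1.06 in control and 0.913 to 0.999 in exposed libraries. With single libraries left out, mpx ran from -0.82 (-0.815, without exposed library 1) to 0.53 (without control library 1), with 0.10 without exposed library 3, and it was 0.0244 with the replicate block without pair 1. Blocked calls of spi1b and lyz were lost, and those of mpx and ncf1 gained, with a pair left out; the cause was not tested.

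Without the block, 0 of the 8 genes were called higher and 0 lower. DESeq2 called 2 higher, the replicate block gave 3 higher and 1 lower, and DESeq2 with the replicate block 3 higher. With single libraries left out 0 were called in either direction, and with the block and single pairs left out 2 to 3 were higher and 0 to 2 lower. Over all genes 125 were higher and 7 lower, against 398 and 96 in DESeq2, 1432 and 1118 with the replicate block, and 998 and 575 in DESeq2 with it. Library totals gave 86 higher and 18 lower, and upper quartile scaling 114 and 11. Single libraries left out gave 39 to 79 higher and 0 to 2 lower, and with the block single pairs left out gave 1265, 1150 and 1010 higher and 870, 862 and 661 lower for pairs 1 to 3, where fewer samples enter. With 2 pairs each gene has 1 residual degree of freedom, so these p-values lean on the spread shared across genes. They were unstable. The blocked edgeR adjusted p of mmp13a was 0.0702 with all pairs, 1.70e-25 without pair 1 and 0.614 without pair 2. That of mmp9 was 0.00531 with all pairs, 6.22e-32 without pair 1 and 0.0654 without pair 3. Passing with any pair left out is thus weak support for a call.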

Other observations

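The glucocorticoid-responsive gene fkbp5, singled out after its values were seen, was lowest in number 1 and highest in number 3 of both arms, where mpx was highest and lowest. It was at 54.0, 199 and 521 CPM in control and 106, 181 and 599 CPM in exposed libraries 1 to 3, where mpx was at 368, 164 and 52.2 and at 249, 168 and 52.0 CPM. The 2 genes belong to the 15 whose highest library exceeded the lowest at least 4.79-fold in both arms. These orders are not particular to them, since among the 15 zgc:162509 had that of fkbp5 and zgc:92745 that of mpx. A link between fkbp5 and mpx was not tested. With 3 numbers this is a description of 3 pairs of pools.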
